A study of Mus musculus with 48 samples.

Results

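The platelet-derived growth factor (PDGF) system was described here by its 6 genes, the ligands *Pdgfa*, *Pdgfb*, *Pdgfc* and *Pdgfd* and the receptors *Pdgfra* and *Pdgfrb*, which were found by symbol among the 24973 genes of the deposited table. All 6 had a row. In GRCm38, by the coordinates of that table, *Pdgfa* (ENSMUSG00000025856) lies at chr5:138976014-138997370 and *Pdgfra* (ENSMUSG00000029231) at chr5:75152292-75198215. *Pdgfb* (ENSMUSG00000000489) lies at chr15:79995900-80014808, *Pdgfc* (ENSMUSG00000028019) at chr3:81036416-81214040, *Pdgfd* (ENSMUSG00000032006) at chr9:6168584-6378850 and *Pdgfrb* (ENSMUSG00000024620) at chr18:61045150-61085061. *Pdgfa* and *Pdgfb* are encoded on the minus strand and the others on the plus strand.

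PDGF chains act as disulfide-linked dimers on a pair of receptor tyrosine kinases. PDGF-A and PDGF-C signal through PDGFRα, PDGF-B binds both receptors, and PDGF-D acts mainly through PDGFRβ. PDGF-C and PDGF-D are secreted in a latent form and need proteolysis before they bind. In the brain, PDGF-B made by endothelial cells recruits and keeps PDGFRβ-bearing pericytes on the vessel wall, while PDGF-A drives the oligodendrocyte precursors, which carry PDGFRα.

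The samples were bulk RNA-seq libraries of endothelial cells, pericytes, astrocytes and microglia sorted from adult male wild-type C57BL/6 mice of 12 to 15 weeks. The right middle cerebral artery had been occluded for 1 h and reperfused for 23 h (transient middle cerebral artery occlusion, tMCAO). Each of the 4 cell types was taken from the ischemic (ipsilateral) and the control (contralateral) hemisphere in 6 replicates, giving 8 groups and 48 libraries. A replicate pooled 3 to 4 mice, and both hemispheres came from the same mice. The 4 cell types were isolated together from the same pooled tissue. No sham-operated animals were sequenced, so the controls had also undergone the operation, and mice without clear neurological deficits did not enter the pools. PDGFRβ protein was itself part of the sort: pericytes were gated as positive for NG2 and PDGFRβ, and endothelial cells and astrocytes as negative for both, while microglia were gated by CD45 and CD11b. Differences of *Pdgfrb* between cell types are therefore given without a test.

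For 12 ipsilateral libraries the sample titles and the column names gave opposite cell types, pericytes against microglia, and the column names were followed. Under them, the 7 microglial markers summed to 188918 to 334829 normalized counts in ipsilateral microglia and to 691 to 55693 in ipsilateral pericytes. Under the titles, 5 members would have been regulated in each of these cell types. Values are normalized counts, that is read counts divided by the size factor of the library and rounded. One read was worth 0.669 to 2.36 normalized counts, so 3 reads amounted to 2.01 to 7.09, and lower levels cannot be told from 0 reliably. Replicates 5 and 6 stood apart from replicates 1 to 4. In pericytes, their summed pericyte markers were 96716 to 147697, against 29935 to 80776, and in endothelial cells their summed microglial markers were 1052 to 1230, against 5962 to 42641. The pericyte libraries also held the 4 smooth muscle markers at 305671 to 472420 in contralateral and 140102 to 323604 in ipsilateral samples. *Kcnj8* and *Abcc9*, both pericyte markers, were low there, at 3 to 305 and 0 to 90 in contralateral pericytes. Astrocyte libraries contained the 6 oligodendrocyte markers at 48141 to 391125 contralaterally.

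**Figure D1:**
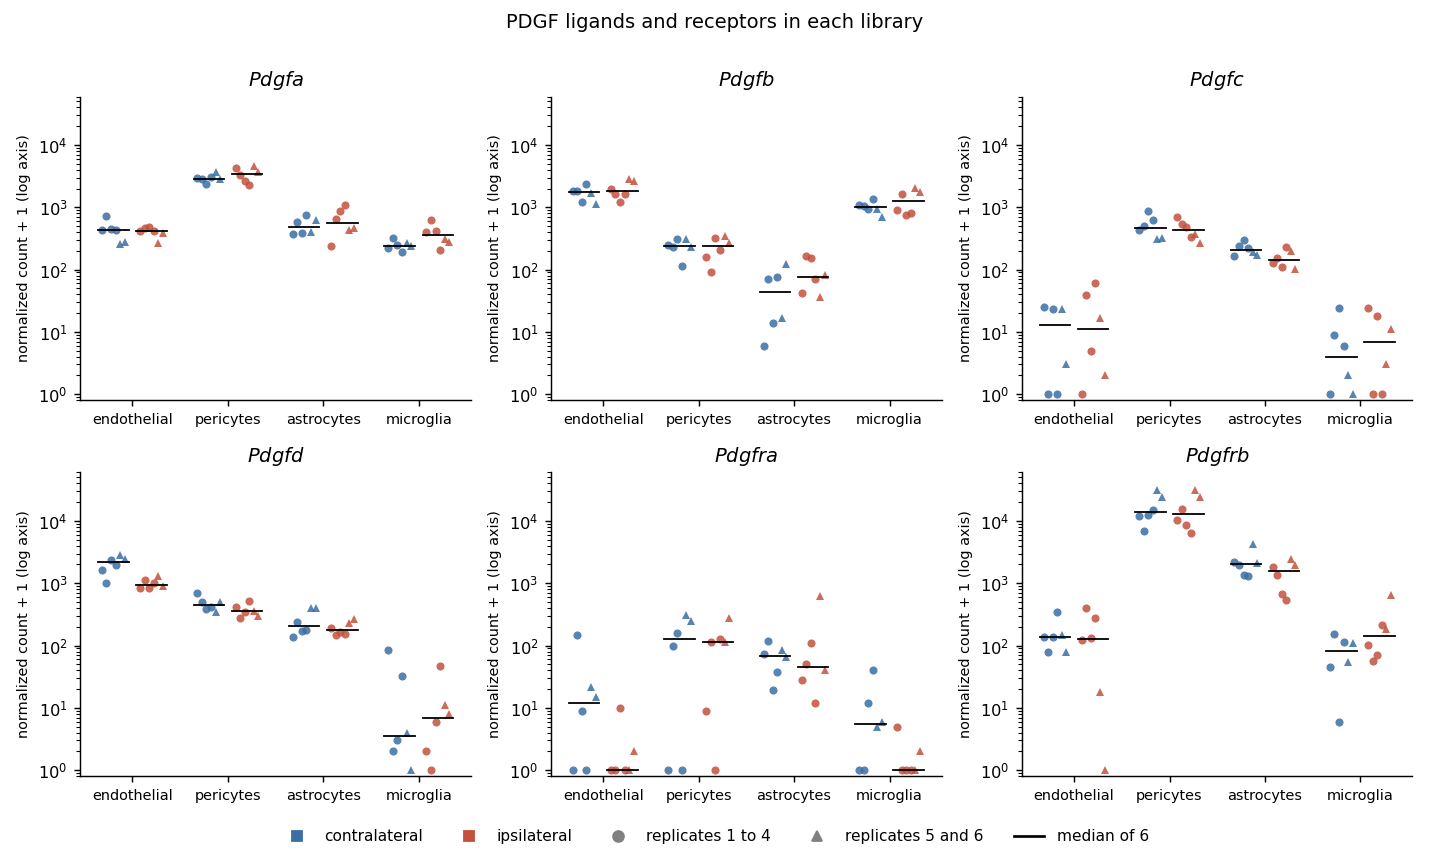
Normalized count plus 1, on a log axis, of each member in each of the 48 libraries, by cell type and hemisphere; black lines are medians of 6 libraries, and triangles are replicates 5 and 6. *Pdgfb* and *Pdgfd* were highest in endothelial cells, *Pdgfa*, *Pdgfc* and *Pdgfrb* in pericytes, and the hemispheres overlapped in every cell type.

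The first question was where each member was expressed in the control hemisphere. Per kb of exon, the scale on which genes can be compared, contralateral endothelial cells held mostly the ligands *Pdgfd* (650 ± 212 normalized counts per kb, SD, n = 6) and *Pdgfb* (404 ± 107). In pericytes the level of *Pdgfrb* was 3094 ± 1641 per kb, above 99.2% of genes detected there, and *Pdgfa* followed with 948 ± 145 per kb. In microglia *Pdgfb* led with 243 ± 50.5 per kb. In astrocytes the highest members were *Pdgfrb*, with 403 ± 203 per kb, and *Pdgfa*, with 166 ± 51.0. Thus the ligands that bind PDGFRβ were highest in endothelial cells, and the receptor in pericytes.

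**Figure D2:**
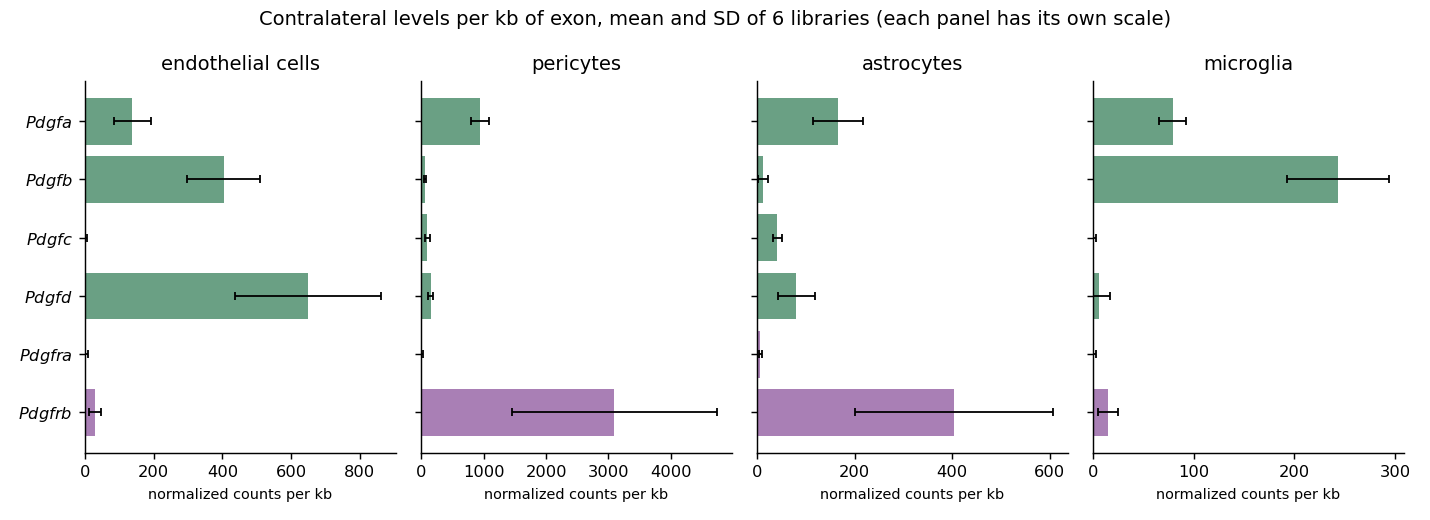
Contralateral level of each member in normalized counts per kb of exon, bars starting at 0 with the SD of 6 libraries; ligands are green, receptors purple, and each cell type has its own scale. *Pdgfd* and *Pdgfb* led in endothelial cells, *Pdgfrb* and *Pdgfa* in pericytes and *Pdgfb* in microglia.

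Among the 5 members other than *Pdgfrb*, 20 of 30 pairwise differences between contralateral cell types passed limma at an adjusted p of at most 0.05 and a change of at least 1.5-fold. Such differences were common among all genes. Endothelial cells and pericytes differed in 4 of the 5 members, with 34.1% of all 15103 genes tested called, and endothelial cells and astrocytes in 3, with 49.5% called. Endothelial cells and microglia differed in 2 members (41.6% of genes called), and pericytes and astrocytes also in 2 (46.1%). Pericytes and microglia differed in 4 members (47.9%) and astrocytes and microglia in all 5 (50.8%).

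*Pdgfb*, the ligand that recruits pericytes, was highest in contralateral endothelial cells, where it ranged from 1143 to 2338 normalized counts with a median of 1772. Microglia came next, with 695 to 1333 and a median of 1005, and the ranges overlapped. The difference, 0.71 on the log2 scale (SE 0.51, 95% interval −0.33 to 1.76), did not pass limma's test (adjusted p = 0.281). Both lay above pericytes, with 115 to 310. Astrocytes, with 5 to 120, had a lower mean than pericytes (50 against 240), but the ranges of these 2 cell types overlapped. In replicates 5 and 6 alone, the differences of pericytes from endothelial cells and from microglia did not pass (limma adjusted p = 0.0610 and 0.136). The 4 endothelial markers reached 0.973% of their endothelial level in contralateral microglia, and *Pdgfb* reached 60.3%. In pericytes *Pdgfb* reached 14.3% of its endothelial level, the endothelial markers 2.63% of theirs and the microglial markers 1.60% of theirs. The part of RNA from other cells in these levels of *Pdgfb* was not tested.

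*Pdgfd*, the other ligand of PDGFRβ, was also highest in contralateral endothelial cells, with 1008 to 2868 normalized counts and a median of 2188. Pericytes held 349 to 707 and astrocytes 134 to 400, a difference of 1.00 on the log2 scale that did not pass (SE 0.72, 95% interval −0.48 to 2.48, limma adjusted p = 0.265). In microglia *Pdgfd* was near the detection limit, with a median of 2.5 and 1 library at 0. As all cell types shared the variance of a gene in this fit, the spread of these low libraries entered the SE of 0.72. The endothelial excess over pericytes was 2.07 on the log2 scale (SE 0.72, adjusted p = 0.0263 by limma), and every endothelial library exceeded every pericyte library. This call was lost in replicates 1 to 4 alone (1.77, adjusted p = 0.148), and without replicate 3 (adjusted p = 0.0835), 4 (0.0541) or 5 (0.0988).

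*Pdgfa*, the classical PDGFRα ligand, was the leading ligand of pericytes, with 2361 to 3740 normalized counts and a median of 2888 in the contralateral hemisphere. Every pericyte library exceeded the libraries of the other 3 cell types, which ranged from 194 to 762. The excess over astrocytes was 2.55 (SE 0.23) and over endothelial cells 2.86 (SE 0.23) on the log2 scale, with limma adjusted p = 2.45e-09 and 5.43e-10. Astrocytes and endothelial cells did not differ beyond their spread (adjusted p = 0.283 by limma), and both exceeded microglia. In replicates 5 and 6 alone, endothelial cells and microglia differed by 0.10 (limma adjusted p = 0.801), against 0.73 over all replicates (adjusted p = 0.0123). The part of the smooth muscle cells seen by their markers in the pericyte level of *Pdgfa* was not tested.

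*Pdgfc*, the second PDGFRα ligand, was found in pericytes at 305 to 857 normalized counts (median 470) and in astrocytes at 163 to 293 (median 204). All pericyte libraries lay above all astrocyte libraries, but the difference of 1.20 on the log2 scale (SE 0.86) did not pass limma's test (adjusted p = 0.264). With a pseudocount of 10 in place of 1 it passed (1.16, limma adjusted p = 0.0167). Endothelial cells, with 0 to 24, and microglia, with 0 to 23, were near the detection limit. In the fit all cell types share the variance of a gene. The spread of these low libraries thus entered the SE between pericytes and astrocytes, and the test does not measure the spread of those 2 cell types alone. In pericytes the 7 fibroblast markers found all averaged above 10 normalized counts and summed to 4974 to 14197, against 18 to 252 in endothelial cells, and their part in *Pdgfc* was not tested.

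The stretch before a RefSeq start site is shown for the ligands that led in endothelial cells (*Pdgfd*) and in pericytes (*Pdgfa*). Capitals mark matches, on either strand, to the TATA box letters TATAAA, which 12.3% of 32536 RefSeq promoters of the same length held, or to the GC box letters GGGCGG, which 33.0% held. The sequences are from RefSeq (GRCm38.p6), 5′ to 3′ on the strand of the gene. The *Pdgfd* stretch, at chr9:6168236-6168485 on the plus strand, held 1 TATA box and no GC box, and its GC content was 53.6%. The *Pdgfa* stretch, at chr5:138994945-138995194 on the minus strand, lies before 1 of 2 RefSeq starts of the gene and held 2 GC boxes and no TATA box, and its GC content was 72.4%. Neither held the AP-1 letters TGANTCA (6.73% of promoters) or the hypoxia response core ACGTG (16.7%). These matches describe the letters alone.
*Pdgfd*: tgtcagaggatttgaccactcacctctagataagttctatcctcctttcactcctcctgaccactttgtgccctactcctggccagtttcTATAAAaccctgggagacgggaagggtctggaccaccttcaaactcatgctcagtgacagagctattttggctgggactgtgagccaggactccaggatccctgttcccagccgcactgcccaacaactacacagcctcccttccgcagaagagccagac
*Pdgfa*: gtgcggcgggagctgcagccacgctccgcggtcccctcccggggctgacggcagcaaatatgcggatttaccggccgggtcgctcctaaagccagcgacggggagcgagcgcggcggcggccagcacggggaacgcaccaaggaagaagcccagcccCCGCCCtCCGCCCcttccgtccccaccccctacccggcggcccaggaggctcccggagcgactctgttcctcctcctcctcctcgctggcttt

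*Pdgfrb*, the receptor of mural cells, ranged from 6893 to 31045 normalized counts in contralateral pericytes, with a median of 13819. Replicates 5 and 6 were highest in both hemispheres, at 23810 to 31045, against 6375 to 15418 in replicates 1 to 4. The pericyte markers *Rgs5* and *Vtn* were also higher there, at 41047 to 59320 and 14863 to 26311 in contralateral replicates 5 and 6, against 6361 to 10636 and 3737 to 5898 in the others.

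Although the astrocyte gate excluded PDGFRβ protein, *Pdgfrb* RNA was present in every contralateral astrocyte library, at 1286 to 4332 (median 2040), 13.0% of the pericyte level. The 7 pericyte markers, all with a mean above 10, summed to 426 to 12697 there, 5.67% of their pericyte level. They did not move alike. *Des* stood at 0.243% of its pericyte level, *Cspg4* at 2.13% and *Vtn* at 27.2%. *Cspg4* encodes NG2, which the astrocyte gate also excluded. *Kcnj8* and *Abcc9* were higher in astrocyte than in pericyte libraries, with means of 509 against 112 and 282 against 49.8. The part of pericyte RNA in the astrocyte level of *Pdgfrb* was not tested. *Pdgfrb* was lower in endothelial cells, at 77 to 341, and in microglia, at 5 to 153.

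*Pdgfra*, the receptor of oligodendrocyte precursors and fibroblasts, was per kb the lowest member in every group but contralateral endothelial cells. The sort had no gate for these cells, and the astrocyte and endothelial gates excluded NG2. The level of *Pdgfra* in the whole tissue is therefore not given by these libraries. In contralateral astrocytes it was found in all 6 libraries, at 18 to 117 normalized counts (median 68). In contralateral pericytes it ranged from 0 in 2 libraries to 304, with replicates 5 and 6 highest at 304 and 247. Endothelial cells were at 0 to 149 and microglia at 0 to 40, each with 2 libraries at 0. Only the difference between astrocytes and microglia passed limma's test (3.53 on the log2 scale, SE 1.44, adjusted p = 0.0429). This call was lost without replicate 1, 2, 5 or 6 (adjusted p = 0.0896, 0.128, 0.0978 and 0.0888 by limma), in replicates 1 to 4 alone (0.179), with a pseudocount of 0.1 (0.0798) and with no filter on low genes (0.0503).

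Contralateral astrocyte libraries held all 8 markers of oligodendrocyte precursors with a mean above 10, summing to 3507 to 18417 with a mean of 10613. Most of this came from *Olig1*, with a mean of 8618, which oligodendrocytes also express. *Neu4* and *Gpr17*, which mark committed precursors, averaged 19.3 and 23.2, and the other markers of the list held the rest. The part of oligodendrocyte precursors in *Pdgfra* was not tested.

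By mean level, the cell types had the same order in both hemispheres for *Pdgfa*, *Pdgfb*, *Pdgfc* and *Pdgfd*, except that without ipsilateral replicate 4 of microglia their *Pdgfa* mean (407) stood just above that of endothelial cells (405). For *Pdgfra*, astrocytes stood first ipsilaterally (141) and pericytes second (106), where the contralateral means were 65.3 and 134. This rested on 1 library: without astrocyte replicate 5, at 612, the ipsilateral astrocyte mean was 46.8, below pericytes, and the medians of all 6 libraries were 44 and 111. For *Pdgfrb*, ipsilateral microglia (211) stood above ipsilateral endothelial cells (158), the reverse of the contralateral means of 79.7 and 153. This too rested on 1 library, since the microglial mean was 125 without replicate 6, at 637.

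The second question was whether tMCAO changed the members within each cell type. A gene was called regulated at a limma adjusted p of at most 0.05, at least a 1.5-fold change and more than 10 normalized counts in all 6 libraries of a hemisphere. No member was regulated in any cell type. By this rule 65, 139, 52 and 1404 genes were regulated in endothelial cells, pericytes, astrocytes and microglia. The paper reported more regulated genes in each of these cell types, using DESeq2. A member that was not called here may thus still have changed. Of the 22 unpaired tests, 1 had an unadjusted p under 0.05 (*Pdgfd* in endothelial cells), and *Pdgfc* and *Pdgfra* were too low to be tested in microglia. No member was called in any cell type with the replicates paired either, neither as a correlated block nor as a term. With the pair term, limma's unadjusted p was under 0.05 for endothelial *Pdgfd* (0.00282) and for *Pdgfrb* in astrocytes (0.00191) and microglia (0.0327). The same held for *Pdgfb* in astrocytes (0.0378) and *Pdgfa* in microglia (0.0421). In endothelial cells 0 of 6 members rose and 0 fell, with 0.362% and 0.128% of all genes called. In pericytes it was 0 of 6 in each direction, with 0.441% of genes higher and 0.581% lower, and in astrocytes 0 of 6, with 0.334% higher and 0.00655% lower. In microglia 0 of 4 members were called, where 4.29% of genes rose and 6.27% fell.

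**Figure D3:**
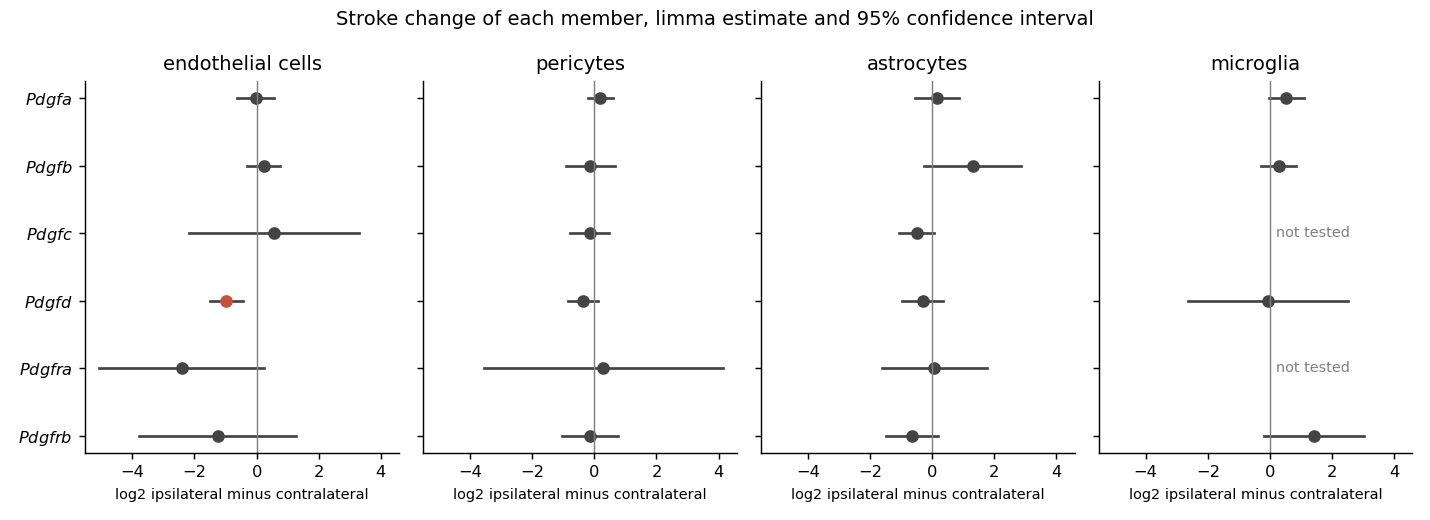
Log2 difference of ipsilateral minus contralateral level for each member and cell type, as the unpaired limma estimate (point) with its 95% confidence interval (line). The red point is the estimate with an unadjusted p under 0.05. *Pdgfd* in endothelial cells had the only interval that did not include 0, −1.50 to −0.44, and the intervals of *Pdgfra* spanned several log2 units.

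*Pdgfd* in endothelial cells gave the smallest p of all members in the unpaired fits, and *Pdgfrb* in astrocytes did so with a pair term. Endothelial *Pdgfd* ranged from 1008 to 2868 normalized counts in the contralateral hemisphere (2051 ± 668, SD, n = 6) and from 823 to 1307 in the ipsilateral one (1004 ± 188). It was lower ipsilaterally in 5 of 6 replicates, and the exception was replicate 2, with 1008 against 1141, so that the hemispheres overlapped. The log2 difference was −0.97 (SE 0.25, 95% interval −1.50 to −0.44), with a limma adjusted p of 0.113. Pairing gave a limma adjusted p of 0.0714 as a replicate block and of 0.126 as a pair term.

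The direction of endothelial *Pdgfd* was the same in replicates 1 to 4 alone (−0.82, limma adjusted p = 0.525) and in replicates 5 and 6 alone (−1.29, adjusted p = 0.0361, called). Without replicate 2 it was called as well (−1.20, limma adjusted p = 0.0238), and over the fits without each single replicate the adjusted p ranged from 0.0238 to 0.425. The summed endothelial markers were 63144 to 92219 contralaterally and 50747 to 80091 ipsilaterally in the same libraries, and the pericyte markers 686 to 2760 and 275 to 1801. Other lists differed more between the hemispheres: the 4 smooth muscle markers summed to 441 to 6161 contralaterally and 205 to 1603 ipsilaterally, and the 6 neutrophil markers to 1 to 1612 and 92 to 9837. The 10 neuron markers summed to 968 to 2679 and 438 to 1185. In replicates 5 and 6, where the *Pdgfd* difference was −1.29, the smooth muscle markers were 676 and 441 contralaterally and 205 and 225 ipsilaterally. The neutrophil markers there were 21 and 1 contralaterally and 92 and 261 ipsilaterally. The part of these cells in the level of *Pdgfd* was not tested. In bulk samples, fewer cells of a type and less RNA per cell cannot be told apart.

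*Pdgfd* also had lower ipsilateral means in pericytes (476 ± 129 against 370 ± 88.6) and in astrocytes (253 ± 119 against 191 ± 46.5), with log2 differences of −0.35 (SE 0.22) and −0.31 (SE 0.30) that did not pass (limma adjusted p = 0.481 and 0.815).

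*Pdgfb* in endothelial cells ranged from 1143 to 2338 contralaterally and from 1223 to 2887 ipsilaterally, and the hemispheres overlapped. The log2 difference was 0.24 (SE 0.25, 95% interval −0.30 to 0.77), with a limma adjusted p of 0.770. The replicate sets went different ways: −0.13 in replicates 1 to 4 (limma adjusted p = 0.945) and 0.98 in replicates 5 and 6 (0.0609). In microglia the pattern recurred, with 695 to 1333 contralaterally, 753 to 2043 ipsilaterally and a log2 difference of 0.28 (SE 0.27, limma adjusted p = 0.511). There it was −0.18 in replicates 1 to 4 (limma adjusted p = 0.699) and 1.21 in replicates 5 and 6 (adjusted p = 0.0214, called). In replicates 5 and 6, ipsilateral *Pdgfb* averaged 2766 in endothelial cells and 1888 in microglia, against 1432 and 823 contralaterally.

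**Figure D4:**
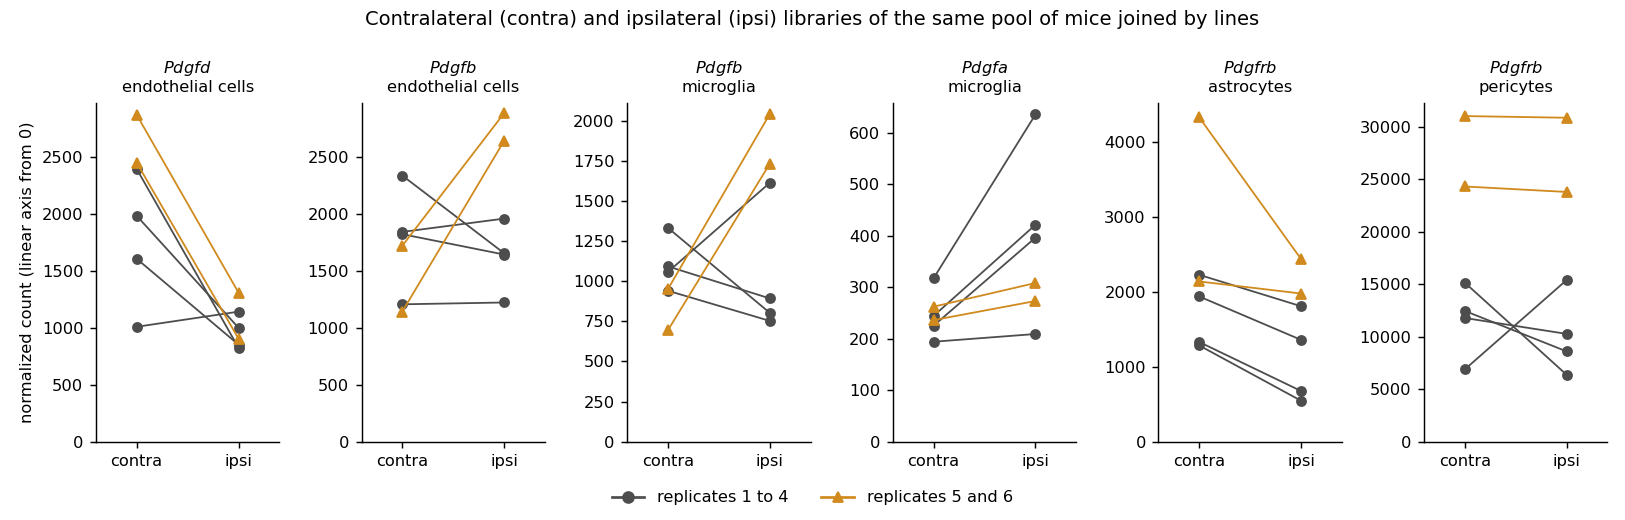
Normalized counts, on linear axes from 0, of 6 pairs of member and cell type, with the contralateral and ipsilateral libraries of the same pool of mice joined by a line; replicates 5 and 6 are orange triangles. Endothelial *Pdgfd* was lower ipsilaterally in all pools but 1, *Pdgfb* was higher in replicates 5 and 6 and had no common direction in the others, and *Pdgfrb* was lower ipsilaterally in all 6 astrocyte pairs.

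Of the other members, *Pdgfa* in microglia and *Pdgfrb* in astrocytes moved the same way in all 6 replicates without passing. *Pdgfa* was 194 to 317 in contralateral and 209 to 635 in ipsilateral microglia (246 ± 41.3 and 374 ± 150), and the ranges overlapped. Its log2 difference was 0.52 (SE 0.26, 95% interval −0.03 to 1.08), with a limma adjusted p of 0.204 unpaired and 0.152 with a pair term. The median log2 difference of all genes tested in microglia was −0.18.

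*Pdgfrb* was 1286 to 4332 in contralateral and 547 to 2439 in ipsilateral astrocytes (2210 ± 1114 and 1469 ± 749), also with overlap. The log2 difference was −0.66 (SE 0.39, 95% interval −1.49 to 0.17), with a limma adjusted p of 0.651 unpaired, 0.239 with the replicate block and 0.0709 with a pair term. The summed pericyte markers in these astrocyte libraries were 426 to 12697 contralaterally and 656 to 5826 ipsilaterally, with means of 5041 and 2609, and their part in the difference was not tested.

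In pericytes, the level of *Pdgfrb* was 6893 to 31045 contralaterally and 6375 to 30885 ipsilaterally (16950 ± 8990 and 15896 ± 9622). The log2 difference was −0.14 (SE 0.42, 95% interval −1.05 to 0.76, limma adjusted p = 0.901). Within replicates 5 and 6 it was −0.02 (SE 0.22) and within replicates 1 to 4 −0.21 (SE 0.31), and without replicate 4 the estimate was 0.078. The smooth muscle markers of these libraries, given above, were lower ipsilaterally, with means of 396111 and 206843. *Pdgfa* in pericytes was 2361 to 3740 contralaterally and 2289 to 4563 ipsilaterally, a log2 difference of 0.19 (SE 0.18, 95% interval −0.20 to 0.58, limma adjusted p = 0.658).

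Further differences did not pass the test. *Pdgfrb* in microglia was 5 to 153 contralaterally and 56 to 637 ipsilaterally (1.42, SE 0.76, limma adjusted p = 0.235). *Pdgfb* in astrocytes was 5 to 120 and 35 to 163 (1.30, SE 0.72, adjusted p = 0.627 by limma), and *Pdgfc* in astrocytes 163 to 293 and 100 to 232 (−0.49, SE 0.26, adjusted p = 0.615). *Pdgfra* in endothelial cells was 0 to 149 contralaterally, with 149 in replicate 2 alone and at most 21 elsewhere, and 0 to 9 ipsilaterally, with 4 libraries at 0. Its log2 difference of −2.41 (SE 1.24, limma adjusted p = 0.474) became −3.63 with a pseudocount of 0.1 and −1.11 with one of 10. All remaining differences had limma adjusted p-values of 0.738 to 0.990 and overlapping hemispheres.

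Whether the change after tMCAO differed between the cell types was tested in one fit of all 48 libraries. None of the 6 members passed limma's F test (adjusted p = 0.616 to 0.957, 0 at an unadjusted p under 0.05), where 0.66% of 15003 genes did. Thus the lower ipsilateral level of *Pdgfd* was not shown to differ between endothelial cells and the other cell types (adjusted p = 0.947). This fit shares the variance of a gene over all groups, so the near-limit microglial libraries entered every comparison of *Pdgfd*. The SE of the difference between endothelial cells and pericytes was 0.94, against 0.25 and 0.22 for the changes in their own fits. For *Pdgfd*, the F test can therefore not decide whether the change differed.

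The other genes of the pathway were taken as 3 lists of 70 genes in all: 15 that process or bind PDGF ligands, 31 next to the receptors, phosphatases included, and 24 of the early response and its feedback. In endothelial cells 1 of 68 tested genes rose and 0 fell, in pericytes 2 of 70 rose and 0 fell, in astrocytes 2 of 70 rose and 0 fell, and in microglia 2 of 67 rose and 9 fell. These counts stand against the 0.362%, 0.441%, 0.334% and 4.29% of all genes that rose and the 6.27% that fell in microglia. The median log2 difference of the lists was 0.04, −0.0011, 0.24 and −0.24 in the order above, and that of all genes tested −0.03, −0.04, −0.06 and −0.18. With the replicate block the count went from 2 to 4 in pericytes and from 2 to 8 in astrocytes, all higher. Among all genes tested, those called higher went from 60 to 117 of 13597 in pericytes and from 51 to 182 of 15264 in astrocytes.

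Among the genes that process or bind ligands, *Thbs1*, which encodes the matrix protein thrombospondin 1, rose in microglia from 165 to 569 normalized counts contralaterally to 1942 to 3843 ipsilaterally, without overlap (2.97 on the log2 scale, SE 0.29, limma adjusted p = 2.89e-05). It was called in all 6 fits that left out 1 replicate. *Plat*, which encodes tissue plasminogen activator, had means of 23860 and 22018 in contralateral and ipsilateral endothelial cells (−0.04 on the log2 scale, 95% interval −0.76 to 0.68, limma adjusted p = 0.985).

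Of the genes next to the receptors, *Ptpn2*, a phosphatase, rose in pericytes from 398 to 548 to 620 to 1114 (0.90 on the log2 scale, SE 0.18, limma adjusted p = 0.0320). *Stat3* rose in astrocytes from 1858 to 3746 to 4868 to 6047 (0.90, SE 0.17, limma adjusted p = 0.0395). In both the hemispheres did not overlap, and the call was lost in all 6 fits that left out 1 replicate for *Ptpn2* (limma adjusted p = 0.0578 to 0.147) and in 5 of 6 for *Stat3* (0.0446 to 0.221). Neutrophil markers in both cell types, and microglial markers in pericytes, were higher in most of the same ipsilateral libraries. In pericytes the 7 microglial markers summed to 593 to 24411 contralaterally and 691 to 55693 ipsilaterally, and the neutrophil markers to 0 to 1226 and 41 to 12948. In astrocytes the neutrophil markers were 1 to 911 and 218 to 5159. The microglial markers there were 2124 to 26889 and 1499 to 20737, with no common direction over the replicates. Their part in these changes was not tested. In microglia 3 of these genes fell: the adaptor gene *Gab1*, the PI3-kinase subunit gene *Pik3r1* and *Plcg1*, a phospholipase gene. *Gab1* fell from 499 to 924 contralaterally to 314 to 406 ipsilaterally (−0.95, SE 0.19, limma adjusted p = 0.00612) and *Pik3r1* from 2382 to 3939 to 895 to 2267 (−0.93, SE 0.21, adjusted p = 0.0114), both without overlap.

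Of the early response genes, *Fosl1*, an AP-1 subunit gene, was the only list gene called in 3 cell types. It rose from 83 to 317 to 489 to 961 normalized counts in endothelial cells (2.01 on the log2 scale, SE 0.34, limma adjusted p = 0.0187) and from 4 to 352 to 401 to 793 in astrocytes (3.88, SE 0.77, adjusted p = 0.0466). In microglia it rose from 27 to 162 to 127 to 243, with overlap (1.40, SE 0.43, limma adjusted p = 0.0472). Its call was lost in 4, 5 and 5 of the 6 fits without a single replicate (highest limma adjusted p = 0.139, 0.290 and 0.154).

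In microglia 6 early response and feedback genes fell, *Fos*, *Fosb*, *Egr1*, *Egr3*, *Dusp6* and *Spry1*. The receptors had contralateral means of 79.7 (*Pdgfrb*) and 10 (*Pdgfra*) there, and whether PDGF signalling took part was not tested. All levels are those of cells after enzymatic digestion and sorting, and the part of this isolation in them was not tested. *Dusp6*, which encodes a phosphatase of ERK, fell from 6927 to 16022 contralaterally to 2059 to 5496 ipsilaterally, without overlap (−1.33, SE 0.25, limma adjusted p = 0.00370). *Egr1* fell from 24177 to 76957 to 8064 to 27058 (−1.29, SE 0.31, limma adjusted p = 0.0163) and *Fos* from 50056 to 101622 to 31919 to 54955 (−0.86, SE 0.23, adjusted p = 0.0299), both with overlap. Without single replicates the call was lost in 2 of 6 fits for *Egr1* and in 5 of 6 for *Fos* (limma adjusted p up to 0.0752 and 0.119). These libraries also changed in their cell markers: the microglial markers summed to means of 446039 contralaterally and 264505 ipsilaterally and the 6 neutrophil markers to 512 and 5284. The latter was 2729 without ipsilateral replicate 2, at 18058. Their part in these changes was not tested.

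**Figure D5:**
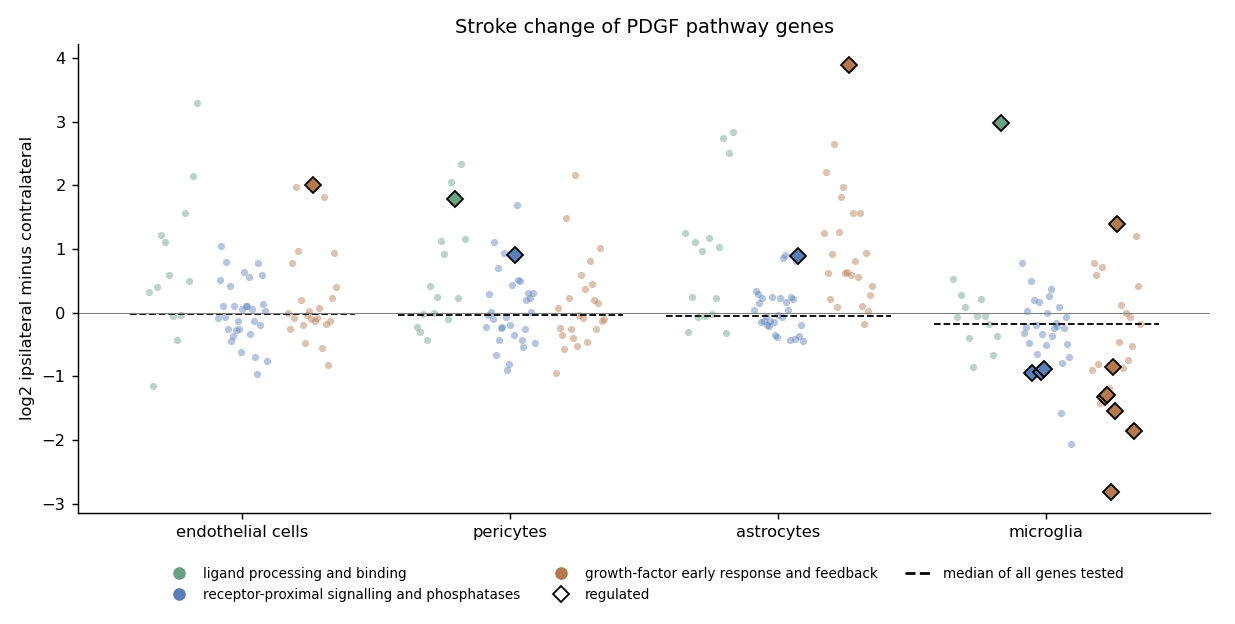
Log2 difference of ipsilateral minus contralateral level of each tested pathway gene by cell type, colored by list; diamonds are regulated genes and dashed lines the median of all genes tested. Regulated genes lay above 0 in endothelial cells, pericytes and astrocytes, and 9 of 11 lay below it in microglia.

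The genes whose pattern over the 48 libraries was most like each member were found among 11853 genes by Pearson's r of the log2 values, as a description that follows mostly the differences between the cell types. They were *H2-T23* (r = 0.93), *H2-D1* and *Elk3* for *Pdgfb*, and *Plat* (0.93), *Plscr2* and *Timp3* for *Pdgfd*. For *Pdgfa* they were *Kcnab1* (0.90), *Tmem38b* and *Ppp1r12b*, and for *Pdgfc* *Loxl1* (0.91), *Fat1* and *Vasn*. *Pdgfrb* was most like *Sod3* (0.95), *Axl* and *Fads3*. *Pdgfra* had the weakest likeness, with *Dzip1l* (0.76), *Map2* and *Ktn1*.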

How the data were processed

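RNA of 48 sorted cell samples was amplified with SMART-Seq HT, which does not mark strand, and sequenced single-end. Per the submitters' processing notes, Trimmomatic 0.38, STAR 2.6.1d, featureCounts 1.6.3 and DESeq2 1.18.1 were used on mm10. The deposited values are scores: normalized counts that the authors made by dividing gene counts by DESeq2 size factors, rounded to whole numbers, so no count model was fitted here. Library sums were 10549900 to 16942165, and the worth of 1 read was found from the steps of the low values. Intervals cover the spread between pools of mice, with the variance of a gene shared by all groups of a fit.

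Groups were taken from the column names. The test was limma 3.58.1 (R 4.3.3; moderated, with trend) on log2(value + 1), over genes with a mean of at least 10, with p-values adjusted by Benjamini-Hochberg over all genes tested. The fits used the 12 libraries of a cell type, the 24 contralateral libraries or all 48. The main fits paired neither the hemispheres nor the cell types of a pool. The fit was tested on simulated data. Fold changes are on the log2(value + 1) scale and understate changes of low genes. Exon lengths came from GENCODE M21. Members, marker and pathway lists were chosen with earlier results of these data known. Named pathway genes were up to 5 called genes per direction and cell type with the smallest adjusted p; *Plat*, *Plcg1*, *Fosb*, *Egr3* and *Spry1* were named after their values were seen. *Ccn1* and *Ccn2* were matched by older symbols. The fibroblast marker *Dpt* was not found. A gene that the naming rule picked is not reported here. Both hemispheres of a replicate came from the same mice, so replicate numbers pair them; same-numbered libraries deviated together, with mean correlations of 0.227, 0.227, 0.380 and 0.135 in endothelial cells, pericytes, astrocytes and microglia. Alternatives were other pseudocounts, filters, scaling, pairing, a joint fit, the titles' cell types, replicates 1 to 4 and each replicate left out; replicates 5 and 6 alone, the titles' cell types for the pathway lists and means without single libraries were added after the data were seen.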

Additional observations from a re-analysis of the deposited data

Results flagged for a closer look

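In 11 of the 48 sets of a member in a group, 1 library lay far from the other 5 by Dixon's test. The same held in 2 sets of named pathway genes. Chance alone gives this in about 1 of 20 sets of normally distributed values. The test was made on normalized counts, several of them near the detection limit, so that rate need not hold and no excess is read from it. The sets of a gene are not independent. For *Pdgfra* these were contralateral endothelial cells (149 normalized counts in replicate 2, at most 21 elsewhere), ipsilateral endothelial cells (9 in replicate 3), ipsilateral astrocytes (612 in replicate 5, at most 108 elsewhere), contralateral microglia (40 in replicate 4) and ipsilateral microglia (4 in replicate 1). For *Pdgfrb* they were contralateral endothelial cells (341 in replicate 4, at most 148 elsewhere), contralateral astrocytes (4332 in replicate 5, at most 2229 elsewhere) and ipsilateral microglia (637 in replicate 6, at most 216 elsewhere). *Pdgfd* stood out in contralateral microglia (84 in replicate 1) and ipsilateral microglia (46 in replicate 4), and *Pdgfc* in contralateral microglia (23 in replicate 3). *Fosl1* did so in contralateral astrocytes (352 in replicate 6, at most 67 elsewhere) and *Egr1* in contralateral microglia (76957 in replicate 4). In all of them the distant library was the highest. In the ipsilateral astrocyte library with 612 of *Pdgfra*, the markers of oligodendrocyte precursors summed to 8217, within the 5471 to 16688 of that group. The part of these cells in that value was not tested.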

How the results depend on the processing

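None of the members was regulated under any pseudocount, filter, scaling, pairing or joint fit tried; exceptions were endothelial *Pdgfd* without replicate 2 or in replicates 5 and 6 alone (1 member called) and microglial *Pdgfb* in replicates 5 and 6 alone (1 called). Over the fits without single replicates the members called ranged from 0 to 1 in endothelial cells and were 0 in the other cell types. With the cell types of the sample titles, 5 members were called in pericytes and 5 in microglia, and 47 and 37 pathway genes. The replicate block changed no call of a member; it raised the pathway genes called to 4 in pericytes and 8 in astrocytes, and a pair term to 4 and 9. The joint fit of 48 libraries called 3, 1, 6 and 6 pathway genes in endothelial cells, pericytes, astrocytes and microglia, against 1, 2, 2 and 11. With no filter on low genes 1 was called in pericytes and 0 in astrocytes, and with a pseudocount of 0.1 or a mean of at least 50, 1 in astrocytes. Replicates 1 to 4 alone gave 0, 0 and 1 in endothelial cells, pericytes and astrocytes, and replicates 5 and 6 alone 9, 0, 0 and 3 in the 4 cell types. The genes called among all tested also moved, from 65, 139, 52 and 1404 in the main fits. They numbered 235, 288, 89 and 827 in the joint fit and 452, 85, 0 and 749 in replicates 5 and 6. Replicates 1 to 4 gave 11, 31 and 48 in the first 3 cell types. The replicate block gave 288 in pericytes and 217 in astrocytes, and the pair term 226 and 242. Without single replicates the pathway counts ranged from 0 to 1, were 0 in pericytes, and ranged from 0 to 3 in astrocytes and from 4 to 14 in microglia; the cause was not tested beyond the fewer samples. The differences between contralateral cell types numbered 18 to 23 of 30 in all settings.

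Some estimates changed sign, with no call on either side but 1. *Pdgfa* in endothelial cells became 0.0018 after rescaling within the fit and 0.25 in replicates 5 and 6, and ranged from −0.13 to 0.10 without single replicates. *Pdgfc* there was −0.51 in replicates 5 and 6 and ranged from −0.52 to 1.60 without single replicates. In replicates 1 to 4, endothelial *Pdgfb* was −0.13, endothelial *Pdgfrb* 0.46, microglial *Pdgfb* −0.18, astrocytic *Pdgfra* −0.44 and the contralateral difference of *Pdgfc* between endothelial cells and microglia −0.29. In replicates 5 and 6, *Pdgfb*, *Pdgfc* and *Pdgfra* in pericytes were 0.19, 0.012 and −0.63, and *Pdgfa* in astrocytes −0.15. The contralateral difference of *Pdgfra* between pericytes and astrocytes was 1.88 in replicates 5 and 6 (called, limma adjusted p = 0.0270) and 0.10 with a pseudocount of 10, and ranged from −1.58 to 0.26 without single replicates. With that pseudocount *Pdgfra* in pericytes changed by −0.082. Without single replicates, the stroke changes ranged from −0.32 to 0.12 (*Pdgfb*), −1.05 to 1.81 (*Pdgfra*) and −0.40 to 0.078 (*Pdgfrb*) in pericytes, from −0.050 to 0.32 (*Pdgfa*) and −0.49 to 0.41 (*Pdgfra*) in astrocytes and from −0.68 to 1.00 (*Pdgfd*) in microglia. The contralateral difference between endothelial cells and microglia ranged from −0.14 to 1.42 for *Pdgfc* and from −0.46 to 2.05 for *Pdgfra*. Depth limited *Pdgfra* in endothelial cells and microglia and *Pdgfc* and *Pdgfd* in microglia, with group medians of 0 to 11 against 2.01 to 7.09 for 3 reads.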
